A study of Mus musculus with 6 samples.

Results

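The data describe 8 transcription factor genes in natural killer (NK) cells of the mouse spleen: the T-box genes Eomes, Tbx21 and Tbx6, and Nfil3, Gata3, Tox, Tox2 and Ets1. They were taken by symbol from the count table of 50686 genes, where each symbol belongs to 1 row, and all 8 are protein-coding and among the 15458 genes with enough counts to test. The WT group, 3 libraries, came from healthy wild-type C57BL/6J mice. The Eumyc group, also 3 libraries, came from C57BL/6J mice that had received Eµ-myc lymphoma by intravenous injection, with spleens taken 14 days later. Eµ-myc is a B lineage tumour in which an immunoglobulin enhancer drives the Myc oncogene. Cells of both groups were sorted as NK1.1+ TCRb- (carrying the NK marker and lacking the receptor of most T cells), and their bulk RNA was sequenced. All samples were first depleted of B cells and enriched on CD49b beads, but in the Eumyc group the cells that the beads had not bound were sorted as well, so lymphoma and sorting scheme cannot be told apart. The labels give neither the number of mice per sample nor whether samples came from separate mice, so p-values measure the spread between these libraries, which may be technical.

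NK cells are built by a small set of transcription factors. The bZIP factor NFIL3, acting downstream of the cytokine IL-15, and the HMG-box factor TOX and the ETS factor ETS1 act early in the lineage. EOMES and T-bet, the product of Tbx21, then set the identity and maturation of the cells, EOMES marking conventional NK cells and T-bet alone being enough for the related type 1 innate lymphoid cells (ILC1). GATA3 is best known from helper T cells and type 2 innate lymphoid cells (ILC2), TBX6 from the presomitic mesoderm of the embryo, and TOX2 has been linked to NK cell differentiation in human cells.

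The WT libraries held 27535702, 36534191 and 16407611 counts and the Eumyc libraries 44456157, 65353739 and 66615602, so depth and group ran together. The NK cell markers were abundant in every library, Ncr1 at 1364 ± 43.1 CPM (counts relative to library size, scaled between libraries with the TMM method) in WT and 1123 ± 66.1 in Eumyc (SD, n = 3 each), although 8 of 12 NK markers were lower in Eumyc. Genes counted as lower, higher, called or passing, here and below, had an edgeR adjusted p under 0.05. Of all genes tested, 25.7% were called higher and 23.1% lower in Eumyc. Summed CPM of marker lists, here and below, used total library counts without TMM scaling. For 20 cycling cell markers the sum was 113 to 508 in WT, with replicate 3 highest, and 2273 to 3388 in Eumyc. Eumyc replicate 1 held the most monocyte and macrophage transcripts, 2238 summed CPM against 1517 and 1551 in the other Eumyc libraries and 939 to 1053 in WT. The ILC1 marker list rose from a summed CPM of 139 to 172 in WT to 278 to 443 in Eumyc, with 9 of 10 genes called higher. The B cell and lymphoma marker list had a summed CPM of 21.5 to 23.7 in WT and 55.34 to 61.95 in Eumyc. Of its 11 tested genes 9 were called higher and 0 lower. Whether any of this RNA came from the injected tumour was not tested.

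The promoters of the 3 members that fell are shown here because the letters in them could be compared with the factors' own binding motifs. Each window holds 250 bases before and 50 after the RefSeq start of the gene on GRCm38.p6, read 5′ to 3′ on the gene's strand. The Eomes window is chr9:118477939-118478238 on the plus strand, the Gata3 window chr2:9878551-9878850 on the minus strand and the Tbx6 window chr7:126781233-126781532 on the plus strand. Capitals mark a match to any motif searched.
Eomes: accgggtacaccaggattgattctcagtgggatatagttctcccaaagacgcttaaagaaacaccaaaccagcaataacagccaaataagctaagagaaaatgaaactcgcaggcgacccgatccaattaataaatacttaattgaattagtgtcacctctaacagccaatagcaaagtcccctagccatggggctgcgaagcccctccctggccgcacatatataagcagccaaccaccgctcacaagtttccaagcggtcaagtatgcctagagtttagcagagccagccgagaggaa
Gata3: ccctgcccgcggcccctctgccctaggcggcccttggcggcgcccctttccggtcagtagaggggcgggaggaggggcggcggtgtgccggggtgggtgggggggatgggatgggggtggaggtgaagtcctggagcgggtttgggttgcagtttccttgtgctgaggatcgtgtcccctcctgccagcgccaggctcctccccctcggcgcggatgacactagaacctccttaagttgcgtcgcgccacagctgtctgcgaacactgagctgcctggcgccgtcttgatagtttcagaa
Tbx6: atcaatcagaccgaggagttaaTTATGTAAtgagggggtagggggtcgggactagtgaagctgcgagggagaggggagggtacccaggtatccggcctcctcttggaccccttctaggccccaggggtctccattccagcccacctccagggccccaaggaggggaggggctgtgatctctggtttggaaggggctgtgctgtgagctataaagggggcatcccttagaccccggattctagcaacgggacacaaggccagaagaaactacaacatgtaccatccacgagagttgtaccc
The motifs, searched on both strands, were AGGTGTGA for T-box factors, TTACGTAA or TTATGTAA for NFIL3, AGATAA for GATA factors and CCGGAAGT for ETS factors. The only match in the windows of the 6 members in the RefSeq table (Eomes, Tbx21, Tbx6, Nfil3, Gata3 and Tox2) was TTATGTAA in Tbx6, whose first base lay at position -228 from the start of the gene. An NFIL3 motif was present in 1.05% of 32817 mouse promoter windows of this length, a T-box motif in 1.27%, a GATA motif in 11.18% and an ETS motif in 3.89%. The 2 NFIL3 motifs are also the letters that the PAR bZIP factors DBP, TEF and HLF are known to bind.

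Of the 8 factors 3 fell in the Eumyc libraries, 2 rose and 3 did not pass the test. Among those that fell, Tbx6 had the largest change, to 0.185 times its WT level, and Eomes and Gata3 fell to 0.763 and 0.756 times theirs. Tox rose 1.59-fold. Tox2 had 1, 3 and 1 counts in the WT libraries and 24, 30 and 26 in the Eumyc libraries. Tbx21, Nfil3 and Ets1 did not pass. Genes were tested with edgeR's quasi-likelihood test and called at a Benjamini-Hochberg adjusted p under 0.05 over all genes tested, by which 48.8% of the 15458 genes were called, 25.7% higher and 23.1% lower in Eumyc. Counts of calls in the lists above and below are read beside these shares, and no list was tested as a set. Tox2 passed the filter on low counts only through the Eumyc libraries and so had to differ; of the other 7 members 4 were called, 1 higher and 3 lower, a share close to that background. For the same 4 of these 7 members no library of 1 group reached into the CPM range of the other, which was so for 60.2% of all genes tested. The groups did not overlap for Tox2 either, which had to differ. The median log2 fold change, Eumyc minus WT, was -0.13 over the 7 members other than Tox2 and -0.0050 over all genes tested. In bulk RNA, fewer cells of a type and less RNA per cell cannot be told apart, and this holds for every value that follows.

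**Figure D1:**
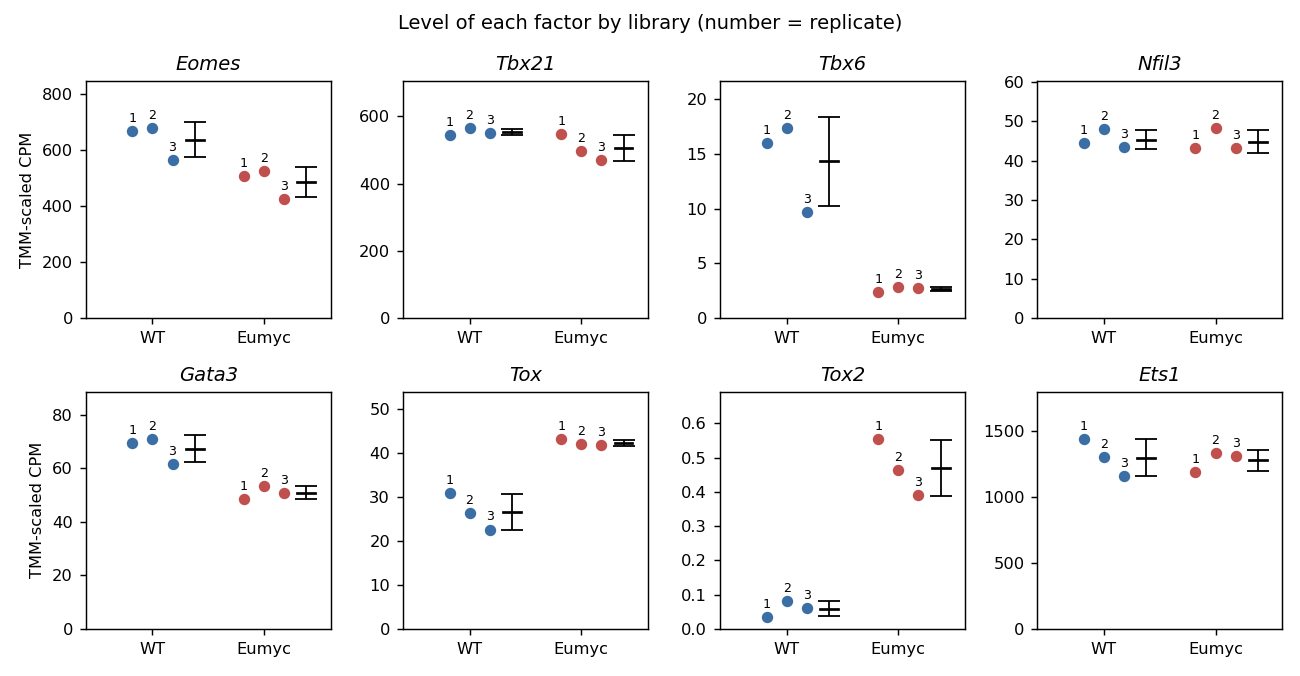
Each panel shows a gene, with TMM-scaled CPM on the vertical axis from 0 and a point per library, numbered by replicate; bars beside the points are the mean and SD of 3 libraries. The groups do not overlap for Eomes, Tbx6, Gata3, Tox and Tox2, and they overlap for Tbx21, Nfil3 and Ets1.

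Eomes (ENSMUSG00000032446, chromosome 9 from 118478212 to 118486132 on GRCm38, plus strand) encodes the T-box factor that marks conventional NK cells. Its level reached 669, 677 and 565 CPM in WT replicates 1, 2 and 3, then 508, 525 and 425 CPM in Eumyc replicates 1, 2 and 3. Every Eumyc library was below every WT library, but the gap between the lowest WT library, replicate 3, and the highest Eumyc library, replicate 2, was small beside the spread within the groups. The log2 fold change was -0.39 ± 0.10 (SE; 95% interval -0.62 to -0.16; edgeR adjusted p = 0.0126). Leaving out WT replicate 1 or WT replicate 2 ended the call (edgeR adjusted p = 0.0525 and 0.0526), and the value was -0.46 without WT replicate 3. An antisense gene, Gm45761, overlaps the last 574 bases of the Eomes span on the other strand, and its counts were 1.52% to 2.55% of those of Eomes. It fell too, from 12.9 ± 4.36 to 7.53 ± 0.856 CPM (SD, n = 3 each; log2 fold change -0.79, edgeR adjusted p = 0.0214). Whether counting used strand was not stated in any source used here, and reads of the pair cannot be told apart in the shared stretch.

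Tbx21 (ENSMUSG00000001444, chromosome 11 from 97098071 to 97115331, minus strand) encodes T-bet, which drives NK cell maturation and interferon-gamma production. The WT libraries gave 545, 564 and 551 CPM and the Eumyc libraries 547, 497 and 471 CPM. Eumyc replicate 1 lay within the WT range and the other Eumyc libraries lay below it. The log2 fold change of -0.13 ± 0.07 (SE; 95% interval -0.29 to 0.02) did not pass (edgeR adjusted p = 0.137), and it stayed above the threshold in all 16 alternatives, where adjusted p ran from 0.0516 to 0.418. The interval reaches further below 0 than above it.

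The balance of the pair was therefore compared within each library, where scaling plays no part. For each count of Tbx21 there were 1.23, 1.20 and 1.03 counts of Eomes in WT and 0.929, 1.06 and 0.903 in Eumyc. Eomes outnumbered Tbx21 in all 3 WT libraries and in Eumyc replicate 2, and the ranges of the groups overlapped between WT replicate 3 and Eumyc replicate 2. The log2 ratio was 0.26 lower in Eumyc (difference of means -0.257), which did not pass a two-sided exact permutation test (p = 0.2, where the smallest p for 3 against 3 is 0.1). Between libraries with the same replicate number the log2 ratio was lower in Eumyc in 3 of 3 pairs, with differences of -0.40, -0.18 and -0.18 (exact sign-flip p = 0.25, the smallest that 3 pairs allow). Per kilobase of exon Tbx21 was the higher of the pair in both groups, at 222 ± 3.95 against 153 ± 15.0 RPKM (CPM divided by exon length in kilobases) in WT and 203 ± 15.6 against 117 ± 12.9 RPKM in Eumyc (SD, n = 3 each).

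Tbx6 (ENSMUSG00000030699, chromosome 7 from 126781483 to 126785560, plus strand) encodes a T-box factor whose known role is in the presomitic mesoderm of the embryo. Its raw counts were 443, 641 and 162 in WT and 105, 185 and 181 in Eumyc, although the Eumyc libraries were deeper. Scaled, the WT libraries stood at 16.0, 17.3 and 9.70 CPM and the Eumyc libraries at 2.42, 2.86 and 2.72 CPM. The groups lay far apart, the 3 Eumyc libraries were close together, and WT replicate 3 stood below the other WT libraries by 0.78 log2 units. Tbx6 changed by a log2 fold change of -2.43 ± 0.22 (SE; 95% interval -2.94 to -1.92; edgeR adjusted p = 0.000204), a level 5.39-fold lower in Eumyc. It was called in all 16 alternatives, with log2 fold changes from -2.63 without WT replicate 3 to -2.26 without WT replicate 2.

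Tbx6 lies 969 bases downstream of Ypel3 on the same strand and 306 bases from the end of Ppp4c, which is on the other strand. Ypel3, a small nuclear protein linked to growth arrest, was more abundant than Tbx6 and also fell, from 222 ± 31.8 to 96.2 ± 8.07 CPM (log2 fold change -1.21 ± 0.11 SE, edgeR adjusted p = 0.000201). Ppp4c, a catalytic subunit of protein phosphatase 4, did not pass, at 177 ± 5.58 and 194 ± 4.19 CPM (edgeR adjusted p = 0.0618). For every 100 counts of Ypel3 there were 6.78, 7.09 and 5.23 counts of Tbx6 in WT and 2.48, 2.76 and 3.11 in Eumyc. The groups did not overlap in this ratio, so Tbx6 was lower in Eumyc also relative to its upstream neighbour (log2 ratio -1.19, exact permutation p = 0.1, the smallest that 3 against 3 allows). Reads that run from Ypel3 into Tbx6 could not be separated in a table of gene counts. Both neighbours were picked by their distance from Tbx6, and the ratio was added after their values were seen.

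Of 17 T-box family genes 5 had enough counts to test. Of these, 4 were called lower and 0 higher, beside 23.1% and 25.7% of all genes tested, and 1, Tbx21, did not pass. The median log2 fold change of the 5 was -0.40. The other 2 called genes were Mga, a T-box protein that also pairs with MAX on E-boxes, which fell from 151 ± 13.7 to 114 ± 13.8 CPM (log2 fold change -0.40 ± 0.10 SE, edgeR adjusted p = 0.0104), and Tbx2, at 0.715 ± 0.336 and 0.236 ± 0.127 CPM (edgeR adjusted p = 0.0376). Tbx2 lost its call when any library other than WT replicate 3 was left out, so that with Eomes the lower count was 2 without WT replicate 1 and 2 without WT replicate 2. Of the family's summed RPKM, Tbx21 held 54.8%, 55.3% and 59.6% in WT and 62.6%, 59.4% and 63.1% in Eumyc. Eomes held 40.3%, 39.7% and 36.6% in WT and 34.9%, 37.6% and 34.1% in Eumyc, and its ranges overlapped. The Tbx6 share was 1.45% to 2.34% in WT and 0.383% to 0.504% in Eumyc. The 3 members of the presomitic mesoderm list with enough counts did not move one way: Dll1, a Notch ligand, was 4.50 ± 0.867 CPM in WT but 30.9 ± 5.03 in Eumyc (log2 fold change 2.79 ± 0.18 SE, edgeR adjusted p = 8.01e-05). Msgn1, at 1.56 ± 0.626 and 0.646 ± 0.266 CPM, and Hes7, at 1.20 ± 0.254 and 0.516 ± 0.212 CPM, were called lower (edgeR adjusted p = 0.0269 and 0.0265). Without WT replicate 1 or 2, or Eumyc replicate 2 or 3, 0 genes of that list were called lower.

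**Figure D2:**
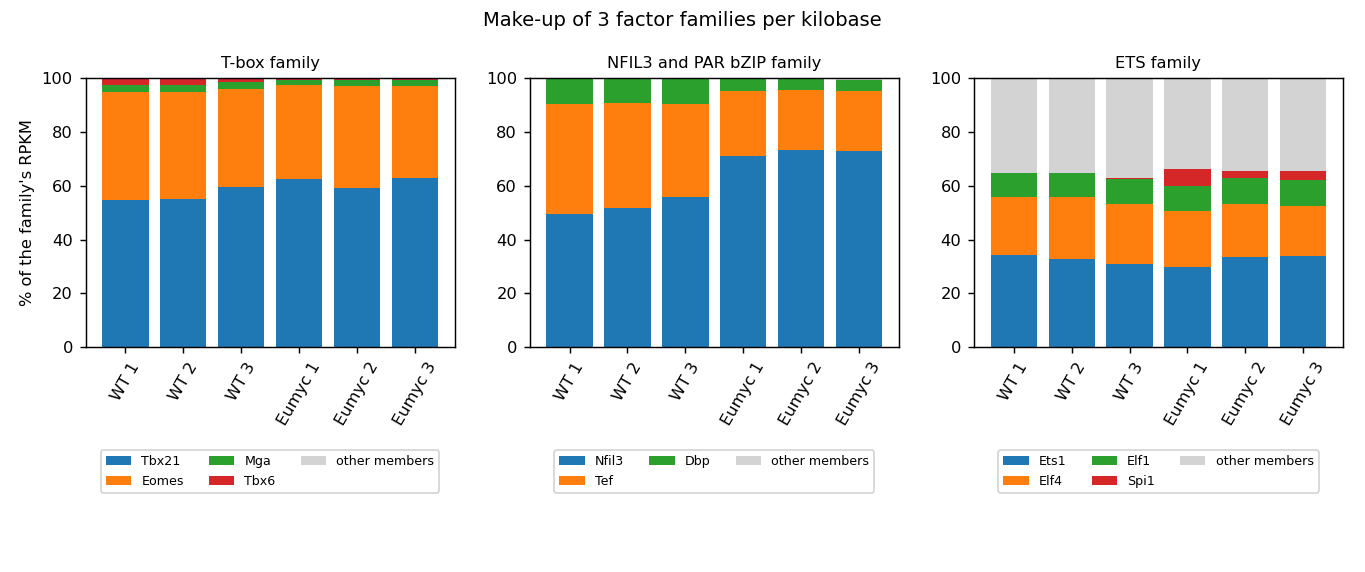
Stacked bars give the share of each family's summed RPKM held by the named genes in each library, on a vertical axis from 0 to 100%. Tbx21 and Eomes together fill most of the T-box bar in every library, the Nfil3 share is higher in the 3 Eumyc libraries than in the 3 WT libraries, and the Spi1 share of ETS genes is 2.67% to 6.30% in Eumyc against 0.154% to 0.267% in WT.

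The T-box levels were also set beside the cycling marker list. In WT the summed CPM of the 20 cycling markers was 139, 113 and 508 in replicates 1, 2 and 3, and in Eumyc it was 2273, 2351 and 3388. In each group the library with the highest sum, replicate 3, had the lowest Eomes level. For Tbx6 this held in WT, but in Eumyc replicate 1 was lowest. All 20 markers were called higher in Eumyc, and their part in the fall of Eomes and Tbx6 was not tested. Within WT, replicate 3 was below the mean of replicates 1 and 2 by 0.25 log2 units for Eomes, 0.24 for Ets1, 0.19 for Gata3 and 0.33 for Tox, while the quartiles of the 9005 genes whose mean reached 10 CPM were -0.12 and 0.13. Tbx21 differed by only -0.0094. WT replicate 3 therefore lay towards Eumyc for Eomes, Tbx6 and Gata3 and away from it for Tox. A shift towards Eumyc was not particular to these factors. On the first principal component of the 9005 genes, with 90.3% of their variance, WT replicate 3 stood at -18.98. WT replicates 1 and 2 stood at -38.84 and -42.93, and the Eumyc libraries at 27.15 to 38.42.

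**Figure D3:**
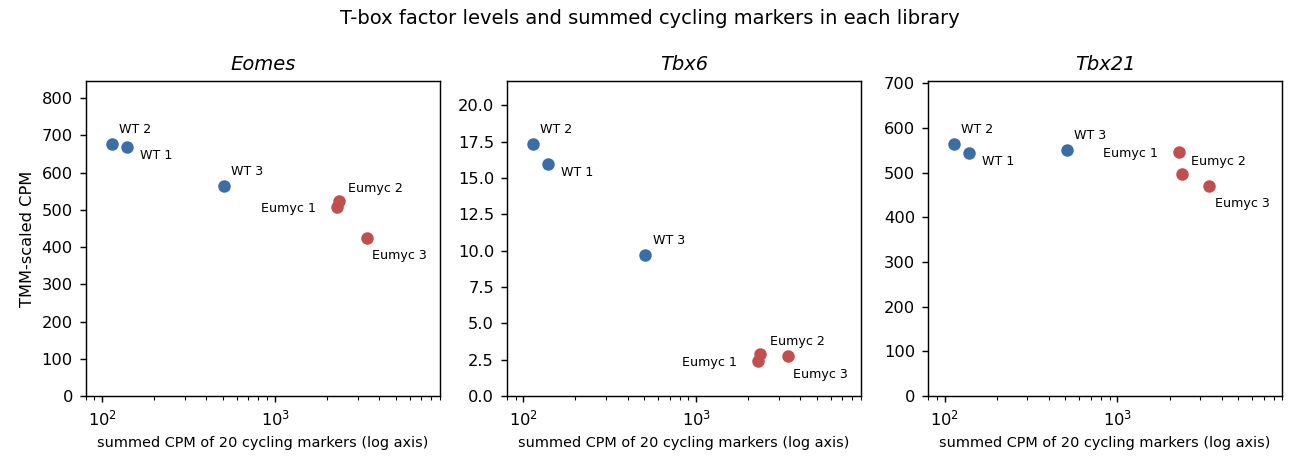
Each point is a library, with the summed CPM of 20 cycling markers (without TMM scaling) on a log horizontal axis. The linear vertical axis, from 0, is the TMM-scaled CPM of Eomes, Tbx6 or Tbx21. WT replicate 3 lies between the other WT libraries and the Eumyc libraries for Eomes and Tbx6, and level with WT for Tbx21.

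Nfil3 (ENSMUSG00000056749, chromosome 13 from 52967209 to 52981073, minus strand) encodes the repressor NFIL3, without which few NK cells form in mice. Its WT libraries held 44.6, 47.9 and 43.4 CPM and its Eumyc libraries 43.2, 48.1 and 43.2 CPM, with overlapping groups. The log2 fold change was -0.02 ± 0.08 (SE; 95% interval -0.19 to 0.16; edgeR adjusted p = 0.875). Of its 3 relatives in the PAR bZIP family, which activate the sites NFIL3 represses and follow the circadian clock, 2 fell. Dbp fell from 11.6 ± 0.794 to 3.86 ± 0.152 CPM (log2 fold change -1.59 ± 0.12 SE, edgeR adjusted p = 0.000149) and Tef from 130 ± 21.4 to 54.9 ± 3.10 CPM (log2 fold change -1.24 ± 0.12 SE, edgeR adjusted p = 0.000222). Hlf, under 1 CPM in both groups, did not pass (edgeR adjusted p = 0.345). Nfil3 thus held 49.6%, 51.8% and 55.7% of this family's summed RPKM in WT and 71.3%, 73.5% and 73.0% in Eumyc, with no overlap. The IL-15 receptor and signalling list, upstream of Nfil3, had 2 of 10 genes higher and 2 lower, with a median log2 fold change of -0.07. The kinase gene Jak3 rose from 339 ± 36.1 to 558 ± 26.6 CPM (log2 fold change 0.72, edgeR adjusted p = 0.000414), and the kinase gene Jak1 and the survival gene Mcl1 fell with log2 fold changes of -0.45 and -0.46. Il2rb, the most abundant gene of the list, rose by 0.20 log2 units (edgeR adjusted p = 0.0320), but the call was lost without WT replicate 1 or 2, without Eumyc replicate 2 or 3 and with scaling to total counts, each of which left 1 gene of the list higher.

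Gata3 (ENSMUSG00000015619, chromosome 2 from 9857078 to 9890034, minus strand) encodes a zinc finger factor of T cell and innate lymphoid lineages. Healthy mice gave 69.3, 70.8 and 61.4 CPM, lymphoma-bearing mice 48.4, 53.4 and 50.6 CPM. All WT libraries were above all Eumyc libraries, with WT replicate 3 nearest to them. Gata3 changed by a log2 fold change of -0.40 ± 0.08 (SE; 95% interval -0.58 to -0.23; edgeR adjusted p = 0.00309), close to that of Eomes, and it was called in all 16 alternatives (adjusted p from 3.85e-05 to 0.0185). The ILC2 marker list, from cells that depend on GATA3, had 4 of 9 genes with enough counts to test, of which 2 were called higher and 1 lower. Il13 had a count of 0 in all 6 libraries, which allows up to 0.183 CPM in the shallowest of them (3 counts), and Il1rl1 was at 0.597 ± 0.462 and 1.38 ± 0.403 CPM. Arg1 and Hpgds had log2 fold changes of 2.00 and 0.77 (edgeR adjusted p = 0.0307 and 0.0484), Arg1 being under 1 CPM in every WT library. Icos, a costimulatory receptor also found on T cells, fell from 22.1 ± 4.67 to 11.4 ± 2.46 CPM (edgeR adjusted p = 0.00488). Icos made up most of the summed CPM of the 9 genes, which was 19.9 to 29.7 in WT and 14.7 to 21.0 in Eumyc. T cell markers, from cells that also carry GATA3, did not fall as a list: Trac was at 9.62 ± 0.279 and 9.99 ± 1.26 CPM, and the summed CPM of 15 genes was 545 to 576 in WT and 613 to 677 in Eumyc.

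Among 8 GATA and FOG genes, 5 had enough counts, 1 was called higher and 2 lower. Zfpm1, the GATA cofactor FOG1, was the most abundant at 265 ± 13.4 and 238 ± 21.7 CPM and did not pass (edgeR adjusted p = 0.130). Gata2 was near 1 CPM in both groups and did not pass (edgeR adjusted p = 0.894). Gata1, the erythroid factor, was higher at 1.48 ± 0.371 CPM against 0.0751 ± 0.0723 in WT (log2 fold change 4.08 ± 0.55 SE, edgeR adjusted p = 0.000730). It had 4, 3 and 0 counts in WT and, like Tox2, passed the filter on low counts only through the Eumyc libraries, so that it had to differ. Beside it 8 of 9 erythroid markers were called higher, their summed CPM being 14.9 to 33.9 in WT and 61.8 to 73.3 in Eumyc. The part of erythroid RNA in the Gata1 value was not tested. Gata6 was at 1.30 ± 0.194 and 0.683 ± 0.133 CPM (edgeR adjusted p = 0.0278), and its call was lost without WT replicate 1 or 2, without Eumyc replicate 2 or 3 and with no filter on low counts, each of which left 1 gene of the family lower.

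Tox (ENSMUSG00000041272, chromosome 4 from 6686353 to 6991557, minus strand) encodes an HMG-box factor that NK and other innate lymphoid lineages need to develop and that accumulates in chronically stimulated T cells. Levels of 30.8, 26.3 and 22.6 CPM were measured in WT replicates 1 to 3 and of 43.1, 42.0 and 41.8 CPM in Eumyc replicates 1 to 3. The 3 Eumyc libraries were nearly equal and all lay above WT, whose replicate 3 was lowest. Tox changed by a log2 fold change of 0.67 ± 0.11 (SE; 95% interval 0.42 to 0.92; edgeR adjusted p = 0.00165). Tox was called in all 16 alternatives, with log2 fold changes from 0.57 to 0.80.

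Tox2 (ENSMUSG00000074607, chromosome 2 from 163203125 to 163324170, plus strand), the close relative of Tox, had 1, 3 and 1 counts in WT and 24, 30 and 26 counts in Eumyc. It was nearly absent from WT libraries and present at a low level in each Eumyc library, 0.554, 0.464 and 0.391 CPM. Over the pooled counts, 5 in WT and 80 in Eumyc, the rate per library count was 7.30 times higher in Eumyc (95% exact interval 3.00 to 23.1, for counting error only). edgeR gave a log2 fold change of 2.88 ± 0.54 (SE; edgeR adjusted p = 0.00296). Because it was kept only through the Eumyc libraries, this test adds nothing to the counts. At equal depth and under a filter of 3 CPM in 3 libraries it was too low to test.

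In the TOX family 2 of 3 tested genes, Tox and Tox2, were called higher and 0 lower. Tox2 was kept only through the Eumyc libraries and had to differ. That leaves Tox, which was called, and Tox4. Tox4, which is expressed in most tissues, was the most abundant at 92.2 ± 6.58 CPM (WT) against 104 ± 4.54 CPM (Eumyc). It did not pass without the replicate number in the model (log2 fold change 0.17, edgeR adjusted p = 0.0704) and passed with it (0.17, adjusted p = 0.0437), at equal depth (0.20, adjusted p = 0.0385) and without WT replicate 2 (0.24, adjusted p = 0.0280). Per kilobase Tox4 held 71.7% to 80.7% of the family's RPKM in the 6 libraries. Tox held 23.8%, 19.4% and 19.2% in WT and 26.4%, 27.0% and 27.5% in Eumyc.

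Genes that rise with TOX in exhausted T cells were set beside it. Of these 12 genes 7 were called higher and 1 lower, with a median log2 fold change of 1.45. The lower gene, Entpd1, lost its call without WT replicate 1 (edgeR adjusted p = 0.0515). The checkpoint receptor genes Havcr2 and Lag3 and the orphan receptor gene Nr4a1 had log2 fold changes of 4.16, 3.34 and 2.53, each larger than that of Tox. Havcr2, at 23.8, 12.8 and 10.98 CPM in Eumyc replicates 1, 2 and 3, and Nr4a1, at 203, 96.7 and 93.0 CPM, were highest in replicate 1, the library with the most monocyte and macrophage transcripts (2238 summed CPM against 1517 and 1551). Lag3, at 81.4, 81.4 and 90.5 CPM, was not. Of 12 monocyte and macrophage markers 8 were called higher, and their part in these values was not tested. The 2 most abundant genes of the list were Cd244, a SLAM receptor at 467 ± 9.29 and 480 ± 23.9 CPM that did not pass (edgeR adjusted p = 0.595), and the receptor gene Cd160, which rose from 92.1 ± 11.7 to 209 ± 22.1 CPM (edgeR adjusted p = 0.000192). T cell markers beside them were uneven: Cd3d and Cd3g were called higher, at 17.0 ± 3.32 and 55.2 ± 12.1 CPM for Cd3d and 14.9 ± 1.29 and 64.8 ± 4.72 CPM for Cd3g, while Cd3e did not pass, with 10.7 ± 0.674 CPM (WT) against 9.27 ± 1.44 (Eumyc) (edgeR adjusted p = 0.276). Of the 15 T cell markers 4 were called higher and 1 lower, and their part in the Tox value was not tested. Trac, which encodes the constant part of the T cell receptor alpha chain, was level, as given above.

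**Figure D4:**
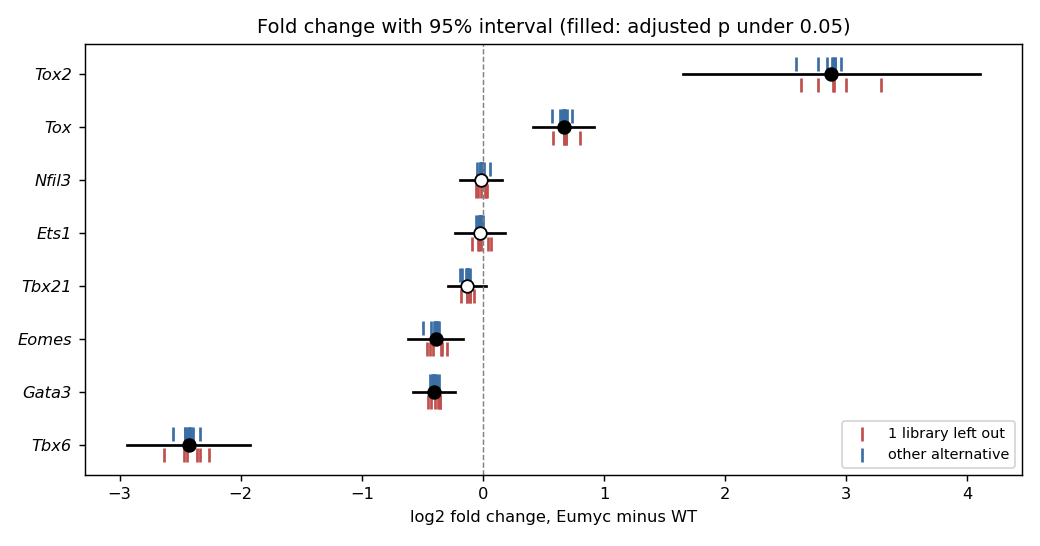
Black points are the log2 fold changes of the 8 genes, Eumyc minus WT, with 95% intervals, filled where the edgeR adjusted p was under 0.05; red ticks leave out 1 library and blue ticks are the other alternatives. No tick crosses 0 for Tbx6, Gata3, Eomes, Tox and Tox2, while ticks of Nfil3 and Ets1 lie on both sides of 0.

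Ets1 (ENSMUSG00000032035, chromosome 9 from 32636221 to 32757820, plus strand) encodes the founding ETS factor, on which NK cell numbers and early expression of Id2 and Tbx21 depend in mice. It had the highest CPM of the 8, with 1437, 1299 and 1157 in the WT libraries and 1188, 1334 and 1307 in the Eumyc libraries. The Eumyc values lay inside the WT range. The log2 fold change was -0.02 ± 0.09 (SE; 95% interval -0.23 to 0.18; edgeR adjusted p = 0.844). Its share of the summed RPKM of 26 ETS genes was 31.0% to 34.2% in WT and 29.8% to 33.9% in Eumyc.

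Other ETS genes moved around it. Of 18 tested ETS genes 6 were called higher and 5 lower, beside 25.7% and 23.1% of all genes tested, with a median log2 fold change of 0.03. The lower count was 3 without WT replicate 1, WT replicate 2, Eumyc replicate 1 or Eumyc replicate 3. Spi1, which encodes the myeloid and B cell factor PU.1, was higher, with 51.3 ± 24.9 CPM in Eumyc against 2.42 ± 0.662 (log2 fold change 4.46 ± 0.38 SE, edgeR adjusted p = 0.000181). It reached 79.8, 33.8 and 40.2 CPM in Eumyc replicates 1, 2 and 3, highest in the library with the most monocyte and macrophage transcripts. Of 12 monocyte and macrophage markers 8 were called higher. So were 9 of 11 tested B cell and lymphoma markers, 8 of 8 tested neutrophil markers and 4 of 8 dendritic cell markers. The neutrophil list summed to 0.164 to 3.72 CPM in WT and 44.8 to 58.3 in Eumyc. At 0.164 CPM in WT replicate 2, none of its genes could pass the low-count filter through the WT libraries alone. The 8 neutrophil calls therefore add nothing to the sums. The part of any of these cells in the Spi1 value was not tested. Spic, a factor of red pulp macrophages, rose from 5.67 ± 1.15 to 10.2 ± 0.538 CPM, and Etv3 from 63.0 ± 13.3 to 103 ± 4.17 CPM (log2 fold changes 0.84 and 0.72). Elf4, the second most abundant ETS gene and a factor for NK cell numbers and perforin in mice, was at 641 ± 37.0 and 564 ± 40.0 CPM. It did not pass without the replicate number in the model (log2 fold change -0.19, edgeR adjusted p = 0.0653) and passed with it (adjusted p = 0.0137), with DESeq2 (0.0453), with total counts (0.0256) and without WT replicate 3 (0.0299).

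The order of the 8 genes per kilobase differed between the groups in 2 places. In WT it ran Tbx21, Eomes, Ets1, Nfil3, Gata3, Tbx6, Tox and Tox2, and Eomes and Ets1, at 153 ± 15.0 and 153 ± 16.5 RPKM, did not differ beyond their spread. In Eumyc Ets1, at 151 ± 9.14 RPKM, stood above Eomes at 117 ± 12.9 RPKM, and Tox, at 5.56 ± 0.0890 RPKM, stood above Tbx6 at 1.48 ± 0.124 RPKM. The other neighbours in the order had ranges that did not overlap. Among the 15458 tested genes ordered by mean RPKM, Tbx21 was number 149 in WT and 192 in Eumyc, Eomes 248 and 365, Ets1 249 and 281, and Tbx6 6034 and 10825.

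The remaining NK lineage factors and the known targets were counted from lists. Of 30 other NK lineage transcription factors 5 were called higher and 13 lower, with a median log2 fold change of -0.15. The most abundant, Ikzf1 and Id2, did not pass, at 948 ± 49.8 and 1010 ± 30.6 CPM for Ikzf1 and 918 ± 52.3 and 874 ± 6.97 CPM for Id2 (edgeR adjusted p = 0.271 and 0.386). Id2 is the inhibitor that NFIL3 and ETS1 are known to sustain. Id3, Zfp683, which encodes the residency factor Hobit, and Zeb2, a T-bet target of terminal maturation, had log2 fold changes of 1.86, 1.52 and -0.70. The Zfp683 call was lost without WT replicate 1 or WT replicate 2 (edgeR adjusted p = 0.0633 and 0.0619).

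Of 18 genes known to depend on T-bet or Eomes in lymphocytes, 5 were called higher, 9 lower and 4 did not pass, with a median log2 fold change of -0.29. The lower genes included Klra8, an Ly49 receptor at 944 ± 162 and 480 ± 92.8 CPM, and S1pr5, a receptor for exit from tissues, at 569 ± 69.9 and 288 ± 48.6 CPM (log2 fold changes -0.98 and -0.99, edgeR adjusted p = 0.00192 and 0.000734). The higher genes included Gzmb, a cytotoxic protease, at 638 ± 174 and 2128 ± 227 CPM, and Ccl5, a chemokine, at 2491 ± 181 and 3341 ± 324 CPM (log2 fold changes 1.74 and 0.42, edgeR adjusted p = 0.000297 and 0.00672). Ly49 genes are near-identical and share reads, so the single values of Klra3, Klra4, Klra8 and Klra9, all called lower, are uncertain. These 4 may not be separate falls, so the count of 9 lower and the median of -0.29 may lean on shared reads. The Klra3 call held only with all libraries or without Eumyc replicate 1 among the fits that left out 1.

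**Figure D5:**
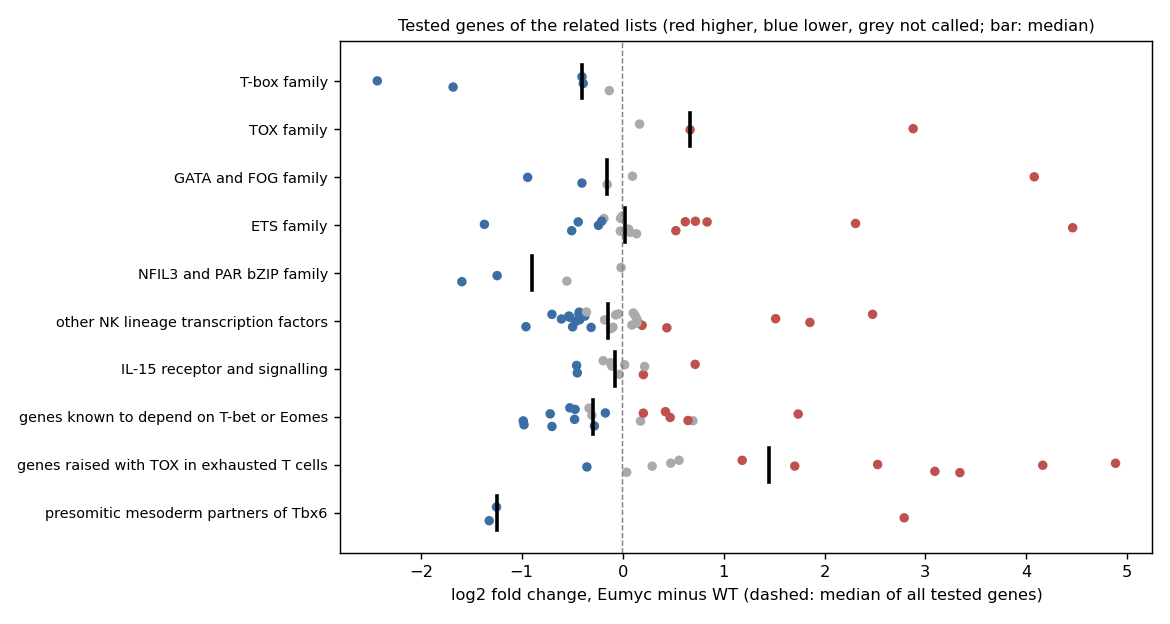
Each point is a tested gene, placed by its log2 fold change (Eumyc minus WT) and coloured by call, in rows of related gene lists; black bars are list medians and the dashed line is the median of all genes tested. The T-box median lies at -0.40, the TOX family median at 0.67 and the median of the genes raised with TOX at 1.45, and the ETS genes spread to both sides of 0. The TOX family median includes Tox2, which had to differ.

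For each factor but Tox the 3 genes with the most similar profile were found, as the lowest root mean square difference of centred log2 CPM over the 6 libraries among 8521 or 8522 named protein-coding genes whose mean reached 10 CPM, with counts in every library. Eomes was nearest to Rnf216, Fzd5 and Arrdc2, at 0.024 to 0.033 log2 units, and Gata3 to Rsbn1l, Idnk and Atg2a, at 0.015 to 0.020. Tbx21 was nearest to Arhgap30, Ppp2r5a and Exoc7, at 0.019 to 0.027. The nearest profiles to Tbx6 were less close: Abca1, a cholesterol exporter, at 0.20, St5 at 0.27 and Cdh22 at 0.30 had log2 fold changes of -2.13, -2.18 and -1.97. Tox2 was nearest to Csf3r, Art2b and Scarb1, at 0.33 to 0.37. Its WT profile rests on 1, 3 and 1 counts, and it was kept only through the Eumyc libraries. These 3 matches therefore say little beyond a fold change of like size. Nfil3 was nearest to Gcn1l1, Ythdc2 and Mbtps2 and Ets1 to Crbn, Ttl and Slc4a7, none of which passed the test.

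The authors' deposited table lists 7 of the 8 factors, all but Tox2. It gives log2 fold changes of -0.39 for Eomes, -0.14 for Tbx21, -2.20 for Tbx6, -0.02 for Nfil3, -0.41 for Gata3, 0.64 for Tox and -0.03 for Ets1. The authors' deposited table has adjusted p-values under 0.05 for Eomes, Tbx6, Gata3 and Tox and 0.0605 for Tbx21. Its Tbx6 value of -2.20 is nearer to 0 than the edgeR value.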

How the data were processed

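RNA of sorted splenic NK cells was sequenced in 6 libraries, 3 WT and 3 Eumyc. Per the submitters' processing notes the authors used STAR 2.5.2, HTSeq 0.6.1 and DESeq2 1.10.1 with mouse build mm10 (GRCm38), and they deposited unnormalised counts per gene and a table of log2 fold changes and adjusted p-values; whether the counting used strand is not given in the sources used here. The authors' deposited standard error of each log2 fold change is kept as a score, a number with no fixed range. The deposited log2 values and p-values were used only where the authors' deposited table is named. Genes were filtered (filterByExpr, minimum count 10), scaled with TMM and tested with edgeR 4.0.16 quasi-likelihood in R 4.3.3 with groups as the only term, with Benjamini-Hochberg adjustment over 15458 genes and calls under 0.05. Fits were tested on simulated data. Counts per library ran from 16407611 to 66615602, and intervals and limits from counts cover counting error only. RPKM used the exon length of each gene in GENCODE M21, and promoters came from RefSeq. Alternatives were DESeq2 1.42.0, limma 3.58.1 (voom), other scalings, filters, equal depth, a term for the replicate number (replicate block) and fits without each library in turn; leaving out WT replicate 3 and Eumyc replicate 1 together was chosen after seeing the data. Same-numbered libraries deviated together (correlations across genes 0.123, 0.36 and 0.50), each above a limit of 0.1. However, WT replicate 1 correlated more with Eumyc replicate 2 (0.175), and WT replicate 2 with Eumyc replicate 1 stood at 0.1. Pairing by replicate number is therefore uncertain, and the main test did not use it. All 8 members are named, as are genes of related lists and the 3 nearest profiles of each member; those of Tox are not reported here. The members and lists were chosen with earlier results of these data known.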

Additional observations from a re-analysis of the deposited data

How the results depend on the processing

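Tbx6, Gata3 and Tox kept their direction and call under all 16 alternatives, and Tbx21 passed in none. With 1 library left out, Eomes ranged from -0.463 to -0.296 and lost its call without WT replicate 1 or 2. The Eomes call held without WT replicate 3 (edgeR adjusted p = 0.00376). It also held without Eumyc replicate 1, 2 or 3 (edgeR adjusted p = 0.0224, 0.0161 and 0.0374). The cause of this difference was not tested. Near 0, Nfil3 turned to 0.00881 with no filter and 0.0565 at equal depth, and ranged from -0.0541 to 0.0357 with 1 library left out (0.0357 without WT replicate 2, 0.0243 without Eumyc replicate 1, 0.0176 without Eumyc replicate 3). Ets1 turned to 0.000338 with no filter and ranged from -0.0918 to 0.066 (0.066 without WT replicate 1, 0.0393 without Eumyc replicate 1). With 1 library left out, lower calls ranged from 2 to 4 for the T-box family, 1 to 2 for GATA and FOG genes, 3 to 6 for ETS genes, 0 to 1 for genes raised with TOX and 0 to 2 for mesoderm genes, and higher calls from 1 to 3 for the IL-15 list. Scaling to total counts left 1 IL-15 gene higher, and no filter left 1 GATA or FOG gene lower. A filter of 3 CPM in 3 libraries, which tests fewer genes, left 1 TOX gene higher, 0 GATA or FOG genes higher and 1 lower, and 0 mesoderm genes lower; equal depth left 1 mesoderm gene lower. No filter moved the median of all genes to 0.09. With the replicate block 7860 genes were called against 7549, Eomes was at -0.392 and Tbx6 at -2.39, the log2 Eomes to Tbx21 ratio was -0.257 (exact sign-flip p = 0.25, the smallest possible), and no member's call changed; among list genes Tox4, Elf4, Irf2, Il2rg, Cx3cr1 and Itgam gained a call. Depth limits Tox2, at 1 to 3 counts per WT library, and since it was kept only through the Eumyc libraries its calls say nothing about stability.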
